A study of Mus musculus with 6 samples.

Results

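The 37 genes described here make cholesterol and fatty acids, control that synthesis or carry sterols, and they were followed in mouse colon of 3 genotypes. They were taken from a list of gene symbols by known function, and the list was drawn up with earlier results of these arrays known, so their counts are a description. The list holds 18 enzymes of sterol synthesis, 10 enzymes of fatty acid synthesis and desaturation, 6 regulators and sterol carriers, and 3 sterol export genes, out of 18193 genes with a probe set of their own. Of the 37, 36 had such a probe set, and all 36 passed the filter on weak signals and were tested among 10916 genes. Acat2, which makes acetoacetyl-CoA at the head of the pathway, was not analysed here.

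Total RNA came from colon of C57BL/6 mice aged 6 to 8 weeks, taken 24 h after ethanol was given into the rectum, and each RNA was hybridised to 1 Affymetrix array. Each of 3 genotypes had 2 arrays: GPR41 KO, GPR43 KO and wild type (WT). Ffar3 encodes GPR41 and Ffar2 encodes GPR43, both receptors for short-chain fatty acids, and a KO (knockout) lacks the named receptor per the labels. All 3 groups received ethanol, and colon without ethanol was not analysed here. The sources used here do not give how the alleles were made or whether the 2 arrays of a group stand for separate animals, so p-values measure only the spread between these arrays.

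Values are MAS5 signals, a linear array intensity that had been scaled between arrays, and the median signal per array lay between 80.88 and 96.83. The check of the GPR43 KO label by its own gene did not hold for both arrays. The WT arrays had Ffar2 signals of 1194 and 1118, and the GPR41 KO arrays 1857 and 1933. The library labelled GPR43 KO replicate 1 had 1598, against 189 in replicate 2. Only the last of these was low, so the GPR43 KO calls of the lipid genes and their median are given with and without the library labelled GPR43 KO replicate 1. Other GPR43 KO values include that library unless stated. The GPR41 KO label was not checked. Colon epithelium was present in every array: the summed signal of 11 absorptive colonocyte markers lay between 162284 and 253424.

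As background, cells make cholesterol from acetyl-CoA through mevalonate, farnesyl diphosphate, squalene and lanosterol. The genes of this pathway are controlled by the membrane-bound factors SREBP-2 (gene Srebf2) and SREBP-1 (gene Srebf1). When sterols are low, Scap escorts the SREBPs to the Golgi for cleavage, and when sterols are high, Insig proteins hold them back. SREBP-1 also acts on genes of fatty acid synthesis. Sterol-activated LXR receptors act on the export genes Abca1, Abcg5 and Abcg8, and Abca1 is active in macrophages, while gut epithelium makes, absorbs and exports sterols.

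Promoter sequence is shown for the 4 genes that carried the most stable differences described below and have a promoter in the RefSeq table of GRCm38.p6. Each line gives the 250 bases before the annotated start, 5′ to 3′ on the gene's strand. For Fasn and Abca1 the start in that table lies inside the gene span given further below. The Fasn window thus lies wholly, and the Abca1 window partly, within its gene. Hmgcs1 lies at chr13:119690101-119690350 on the plus strand, Tm7sf2 at chr19:6067851-6068100, Fasn at chr11:120824548-120824797 and Abca1 at chr4:53159896-53160145, all on the minus strand. Capitals mark matches on either strand to TCACNCCAC (letters of a sterol regulatory element), CCAAT (the letters bound by NF-Y, read as ATTGG on the other strand) and CACGTG (an E-box).
Hmgcs1: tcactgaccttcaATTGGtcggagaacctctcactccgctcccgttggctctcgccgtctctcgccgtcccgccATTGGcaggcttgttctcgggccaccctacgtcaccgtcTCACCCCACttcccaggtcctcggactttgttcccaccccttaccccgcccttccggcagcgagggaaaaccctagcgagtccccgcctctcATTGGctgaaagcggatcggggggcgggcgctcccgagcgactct
Tm7sf2: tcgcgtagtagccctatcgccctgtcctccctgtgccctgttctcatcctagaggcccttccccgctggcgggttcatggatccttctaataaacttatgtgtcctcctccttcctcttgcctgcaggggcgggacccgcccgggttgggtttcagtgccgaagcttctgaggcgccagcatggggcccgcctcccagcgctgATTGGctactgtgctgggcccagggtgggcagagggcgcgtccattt
Fasn: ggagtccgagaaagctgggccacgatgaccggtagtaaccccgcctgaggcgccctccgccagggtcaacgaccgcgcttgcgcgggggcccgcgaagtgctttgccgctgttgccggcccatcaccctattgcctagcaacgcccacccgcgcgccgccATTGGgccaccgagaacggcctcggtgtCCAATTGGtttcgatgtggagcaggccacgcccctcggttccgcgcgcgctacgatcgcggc
Abca1: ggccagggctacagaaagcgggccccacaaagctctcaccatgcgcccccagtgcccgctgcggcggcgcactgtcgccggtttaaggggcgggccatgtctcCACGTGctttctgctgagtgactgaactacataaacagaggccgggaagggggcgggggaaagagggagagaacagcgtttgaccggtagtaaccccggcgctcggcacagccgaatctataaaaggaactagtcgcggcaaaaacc

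A promoter was matched for 30 of the 37 genes. CCAAT occurred in 22 of the 30 (73.3%), against 37.5% of 27025 genes and 33.8% of all 32851 promoters of that length in the table. By role, it was in 14 of 15 sterol enzymes, 4 of 5 regulators, 3 of 7 fatty acid enzymes (Acss2, Fasn and Me1) and 1 of 3 export genes (Abcg8). Hmgcs1 held it 3 times, and the 3 matches of Fasn include a pair that overlap. CACGTG was in 6 of the 30 (20%; Hsd17b7, Sc5d, Dhcr7, Insig1, Scap and Abca1), against 6.86% of genes. TCACNCCAC was in Hmgcs1 only (3.33% of the 30, against 1.22% of genes), with its first base 137 before the start. Only this spelling was searched, so a missing match does not show that a gene lacks a sterol regulatory element. These are matches of letters within one window and no measure of binding. Promoters of different genes differ in base composition, which the shares do not take into account.

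In GPR41 KO, 18 of the 36 genes rose against WT, 1 fell and 17 did not pass the test (limma, Benjamini-Hochberg over all genes tested, threshold 0.05). The 18 comprised 9 of 17 sterol enzymes, 8 of 10 fatty acid enzymes and Srebf2, and the gene that fell was Abca1. Over all 10916 genes tested, 4.96% passed in this comparison, with 1.85% higher and 3.11% lower. The median log2 fold change was 0.74 over the 36 genes and 0.000569 over all genes tested. In 32 of the 36 genes the GPR41 KO arrays were both higher than either WT array, an arrangement found in 24.6% of all genes tested. The fold change was above 0 in 34 of 36, against 50.1% of all genes. With median centring of the arrays, which raised the median of all genes to 0.0952, the genes past the test split into 314 higher and 338 lower, in place of 202 and 339.

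In GPR43 KO, 10 of the 36 genes rose against WT, 1 fell and 25 did not pass. Here 6 of 17 sterol enzymes and 4 of 10 fatty acid enzymes rose, and Abca1 again was the gene that fell. Of all genes tested, 3.96% passed, with 1.55% higher and 2.41% lower. The median log2 fold change was 0.64 over the 36 genes and 0.0297 over all genes. The GPR43 KO arrays were both higher than either WT array in 29 of the 36, against 27.7% of all genes, and the fold change was above 0 in 33 of 36, against 54% of all genes. Without the library labelled GPR43 KO replicate 1, 6 of the 11 calls passed (Hmgcs1, Fdps, Tm7sf2, Dhcr7, Scd1 and Scd2) and the median was 0.70. Without GPR43 KO replicate 2, calls fell to 2 (Fdps and Scd1) and the median was 0.55. Both KO groups were compared with the same 2 WT arrays, so their values are given side by side and not as independent results.

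**Figure D1:**
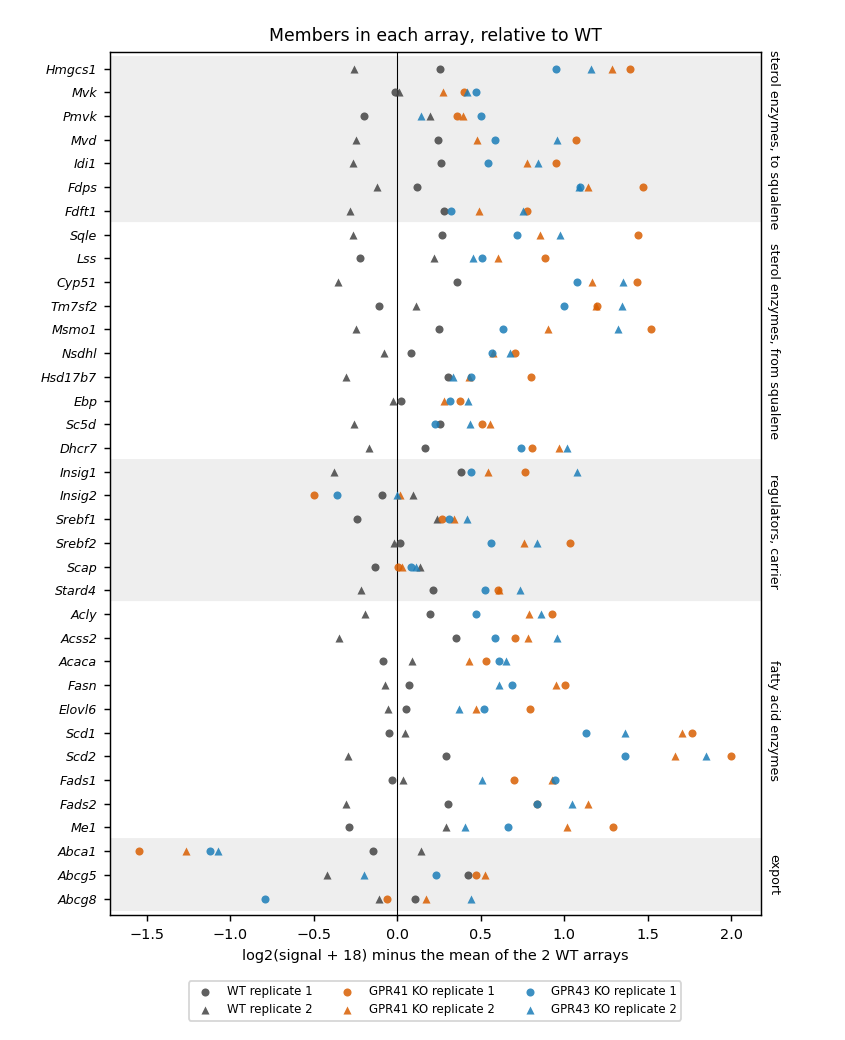
Log2(signal + 18) of each of the 36 genes in each of the 6 arrays, shown on the x axis as the difference from the gene's WT mean, with genes in rows by role. Colours stand for genotypes, circles for replicate 1 and triangles for replicate 2. All KO points of the 10 fatty acid enzymes and most of the 17 sterol enzymes lie to the right of both WT points, and those of Abca1 lie to the left.

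Among the early sterol enzymes, which lead up to squalene, 3 of 7 rose in GPR41 KO and 2 of 7 in GPR43 KO. Hmgcs1, which makes HMG-CoA, the precursor of mevalonate, lies at chr13:119690351-119708260. Its signal was 6607 and 4617 in WT, 14555 and 13487 in GPR41 KO, and 10699 and 12372 in GPR43 KO. Every KO array was above both WT arrays. The log2 fold change was 1.34 ± 0.17 (SE, adjusted p = 0.00357) in GPR41 KO and 1.06 ± 0.17 (adjusted p = 0.0135) in GPR43 KO. When the library labelled GPR43 KO replicate 1 was left out, the second value was 1.16 (adjusted p = 0.0464), and without GPR43 KO replicate 2 it was 0.95 and did not pass (adjusted p = 0.117).

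Fdps makes farnesyl diphosphate, from which both sterols and isoprenoid groups are built, and lies at chr3:89093588-89101967. Its signal was 3762 and 3191 in WT, 9647.5 and 7656 in GPR41 KO, and 7421 and 7402 in GPR43 KO. The groups did not overlap, and the log2 fold change was 1.31 ± 0.15 (adjusted p = 0.00195) in GPR41 KO and 1.09 ± 0.15 (adjusted p = 0.00539) in GPR43 KO. Fdps passed in both comparisons whichever array was left out, with adjusted p of at most 0.0189 in GPR41 KO and 0.0444 in GPR43 KO. Idi1, which isomerises the isoprene unit, rose in GPR41 KO by 0.86 ± 0.19 (adjusted p = 0.0362) and had a log2 fold change of 0.69 (adjusted p = 0.0843) in GPR43 KO.

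The other early enzymes did not pass in either KO group. Mvk and Pmvk, which phosphorylate mevalonate, had log2 fold changes of 0.33 and 0.38 in GPR41 KO and 0.44 and 0.32 in GPR43 KO. Mvd, which makes the isoprene unit by decarboxylation, had 0.77 in both groups (adjusted p = 0.125 and 0.13). Fdft1, which joins farnesyl units into squalene, had 0.63 and 0.54 (adjusted p = 0.147 and 0.211). All 4 were above both WT arrays in both GPR41 KO arrays, an arrangement found in 24.6% of all genes tested. Pmvk alone of the 4 overlapped with WT in GPR43 KO, at 1007 and 783 against 614 and 813.

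Of the 10 late enzymes, which act from squalene to cholesterol, 6 rose in GPR41 KO and 4 in GPR43 KO. Tm7sf2, a sterol C14-reductase at chr19:6062821-6067850, had signals of 459 and 538 in WT, 1164 and 1155 in GPR41 KO, and 1012 and 1291 in GPR43 KO. All KO arrays were well apart from WT, by a log2 fold change of 1.19 ± 0.17 (adjusted p = 0.00476) in GPR41 KO and 1.17 ± 0.17 (adjusted p = 0.00711) in GPR43 KO. For the latter, the value was 1.35 (adjusted p = 0.0142) with the library labelled GPR43 KO replicate 1 left out, while leaving out replicate 2 gave 1.001 (adjusted p = 0.0632).

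Cyp51, the lanosterol demethylase, had signals of 951 and 572 in WT, 2024 and 1678 in GPR41 KO, and 1576 and 1910.1 in GPR43 KO. It rose by 1.30 ± 0.23 (adjusted p = 0.0139) and 1.21 ± 0.23 (adjusted p = 0.0238) on the log2 scale, and its WT arrays were themselves far apart. Dhcr7, which makes cholesterol from 7-dehydrocholesterol, rose by 0.89 ± 0.16 (adjusted p = 0.0174) in GPR41 KO and 0.88 ± 0.16 (adjusted p = 0.0227) in GPR43 KO. Nsdhl, of the demethylation complex, rose by 0.64 ± 0.13 (adjusted p = 0.0269) and 0.62 ± 0.13 (adjusted p = 0.0361). These 3 genes passed in both KO groups.

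Sqle and Msmo1 rose in GPR41 KO only by the test. Sqle, squalene epoxidase and a rate-limiting step, had log2 fold changes of 1.15 ± 0.23 (adjusted p = 0.0244) in GPR41 KO and 0.85 (adjusted p = 0.0821) in GPR43 KO. Msmo1, the sterol C4-methyl oxidase, had 1.21 ± 0.27 (adjusted p = 0.0414) and 0.98 (adjusted p = 0.0894). The difference between the KO groups did not pass for either gene (adjusted p = 0.896 and 0.936), so it is not shown that they differ. Lss, which closes the sterol ring, Hsd17b7, Ebp and Sc5d passed in neither group, with log2 fold changes of 0.33 to 0.74 in GPR41 KO and 0.33 to 0.48 in GPR43 KO. Sc5d overlapped with WT in GPR43 KO. In all, the 17 sterol enzymes had log2 fold changes of 0.33 to 1.34 in GPR41 KO and 0.32 to 1.21 in GPR43 KO. Both KO arrays were above both WT arrays in 17 of 17 in GPR41 KO, against 24.6% of all genes tested. In GPR43 KO this held in 15 of 17, against 27.7% of all genes.

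**Figure D2:**
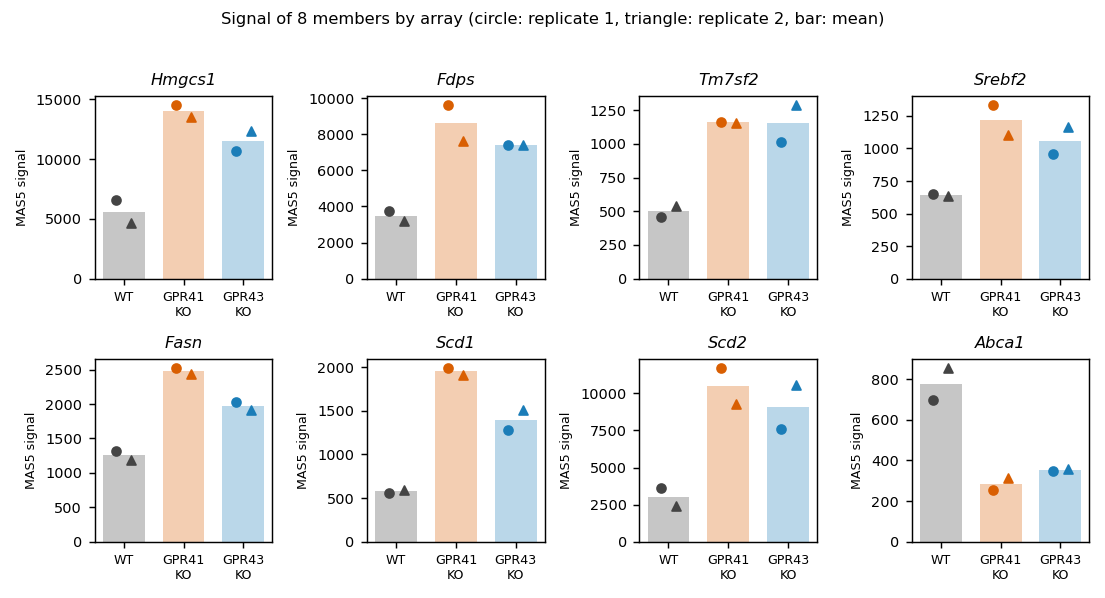
MAS5 signal (linear axis from 0) of the 7 genes whose GPR41 KO call passed whichever array was left out, and of Srebf2. Circles are replicate 1, triangles replicate 2 and bars the mean of each group. Hmgcs1, Fdps, Tm7sf2, Srebf2, Fasn, Scd1 and Scd2 are higher in all 4 KO arrays than in both WT arrays, and Abca1 is lower.

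The fatty acid enzymes held the largest fold changes of the set. Scd2, a stearoyl-CoA desaturase that makes monounsaturated fatty acids, lies at chr19:44293676-44306864. Its signal was 3589 and 2383 in WT, 11743 and 9318 in GPR41 KO, and 7571 and 10570.2 in GPR43 KO. The mean KO signal was 3.53 and 3.04 times the WT mean. On the log2 scale the change was 1.83 ± 0.23 (adjusted p = 0.00293) and 1.61 ± 0.23 (adjusted p = 0.00693), the 18th and 26th largest rise among the 10916 genes tested. The GPR43 KO value was 1.85 (adjusted p = 0.0111) with the library labelled GPR43 KO replicate 1 left out, while leaving out replicate 2 gave 1.37 (adjusted p = 0.0534).

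Scd1, its neighbour on the chromosome (chr19:44394450-44407709), encodes a second desaturase of the same family. Its signal was 556 and 596 in WT, 1996 and 1913 in GPR41 KO, and 1279.5 and 1508 in GPR43 KO. The 3 groups did not overlap with each other, with WT lowest and GPR41 KO highest. The log2 fold change was 1.73 ± 0.14 (adjusted p = 0.000614) in GPR41 KO and 1.25 ± 0.14 (adjusted p = 0.00251) in GPR43 KO, which is 3.40 and 2.42 times the WT mean. Scd1 passed in both comparisons whichever array was left out, with adjusted p of at most 0.0073 and 0.0273, and the GPR43 KO value was 1.36 without the library labelled GPR43 KO replicate 1.

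Fasn, fatty acid synthase, makes palmitate and lies at chr11:120805958-120825166. Its signal was 1316 and 1192 in WT, 2530.5 and 2441 in GPR41 KO, and 2028 and 1919 in GPR43 KO. As for Scd1, the 3 groups were separate and in the same order. The log2 fold change was 0.98 ± 0.12 (adjusted p = 0.00308) in GPR41 KO and 0.65 ± 0.12 (adjusted p = 0.024) in GPR43 KO. In the latter, the call was lost with the library labelled GPR43 KO replicate 1 left out (0.61, adjusted p = 0.127) and without GPR43 KO replicate 2 (0.69, adjusted p = 0.121).

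Of the enzymes that supply Fasn, Acly, which makes cytosolic acetyl-CoA from citrate, rose in GPR41 KO by 0.86 ± 0.17 (adjusted p = 0.0263) and had 0.67 (adjusted p = 0.0728) in GPR43 KO. Me1, malic enzyme and a source of NADPH, had signals of 384 and 583 in WT, 1187 and 977 in GPR41 KO, and 759.6 and 635 in GPR43 KO. It rose in GPR41 KO by 1.15 ± 0.22 (adjusted p = 0.0188) and had 0.53 (adjusted p = 0.218) in GPR43 KO, where its arrays lay just above WT. Acss2, which activates acetate, had 0.75 and 0.77 (adjusted p = 0.106 and 0.0989). Acaca, acetyl-CoA carboxylase, had 0.48 and 0.63 (adjusted p = 0.114 and 0.0539). Neither of these passed, although their KO arrays were all above WT.

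Enzymes that lengthen and desaturate fatty acids were also higher. Fads2, the delta-6 desaturase of polyunsaturated fatty acids, had signals of 1611 and 1048 in WT, 2336 and 2887 in GPR41 KO, and 2332 and 2699.9 in GPR43 KO. It rose by 0.99 ± 0.21 (adjusted p = 0.0292) and 0.94 ± 0.21 (adjusted p = 0.0414). Fads1, the delta-5 desaturase, rose in GPR41 KO by 0.81 ± 0.19 with an adjusted p of 0.0499, at the edge of the threshold, and had 0.73 (adjusted p = 0.079) in GPR43 KO. Elovl6, which lengthens palmitate, rose in GPR41 KO by 0.63 ± 0.14 (adjusted p = 0.0436) and had 0.44 (adjusted p = 0.137) in GPR43 KO. All 10 fatty acid enzymes were above WT in both arrays of both KO groups, with log2 fold changes of 0.48 to 1.83 in GPR41 KO and 0.44 to 1.61 in GPR43 KO.

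**Figure D3:**
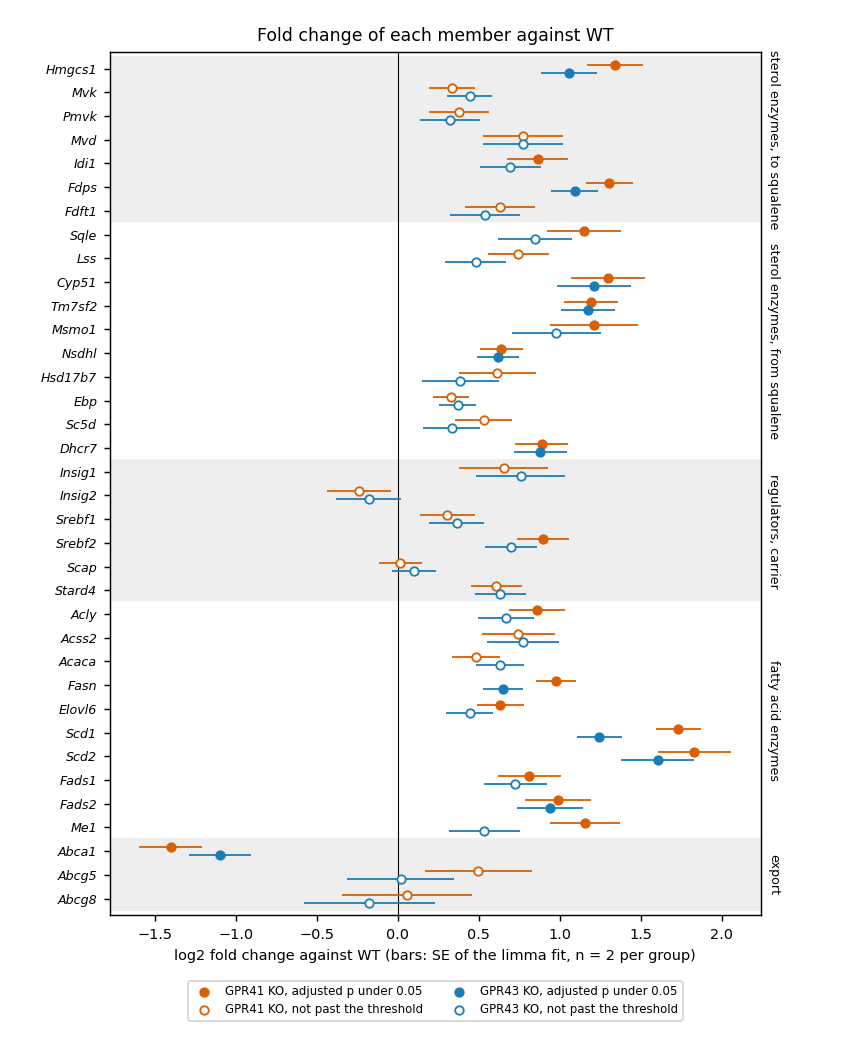
Log2 fold change of the 36 genes against WT in GPR41 KO and GPR43 KO, by role, with bars for the SE of the limma fit (n = 2 arrays per group) and filled points for genes past the test. Points lie above 0 in 34 of 36 genes in GPR41 KO and 33 of 36 in GPR43 KO, and Abca1 stands far below 0 in both.

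Among the 6 regulators and carriers, Srebf2 rose in GPR41 KO and none passed in GPR43 KO. Srebf2 (chr15:82147269-82205379) had signals of 651 and 635 in WT, 1337 and 1099.6 in GPR41 KO, and 957 and 1162 in GPR43 KO. Its log2 fold change was 0.90 ± 0.16 (adjusted p = 0.0153) in GPR41 KO and 0.70 ± 0.16 (adjusted p = 0.0514) in GPR43 KO, just outside the threshold. Srebf1 had 0.31 and 0.36 (adjusted p = 0.372 and 0.275), and its isoforms were not told apart here. Scap had 0.02 and 0.10, with KO arrays at 1533 to 1658 between WT arrays of 1392 and 1679.7.

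The 2 Insig genes differed in sign. Insig1 had signals of 963 and 561 in WT, 1262 and 1079 in GPR41 KO, and 1005 and 1575 in GPR43 KO, with log2 fold changes of 0.65 (adjusted p = 0.236) and 0.76 (adjusted p = 0.174). Insig2 had signals of 1333 and 1521 in WT, 1003 and 1442 in GPR41 KO, and 1104 and 1424 in GPR43 KO, with log2 fold changes of -0.24 (adjusted p = 0.567) and -0.18 (adjusted p = 0.666). Neither passed, and Insig2 overlapped with WT. Stard4, which carries cholesterol through the cytosol, had 0.61 and 0.63 (adjusted p = 0.0678 and 0.0646) with all KO arrays above WT.

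Sterol export differed from synthesis in direction, through Abca1. Abca1 passes cholesterol and phospholipid to apolipoprotein A-I and lies at chr4:53030789-53159988. Its signal was 699 and 857 in WT, 254 and 312 in GPR41 KO, and 346 and 358 in GPR43 KO. All KO arrays were below both WT arrays, an arrangement found in 25.3% of all genes for GPR41 KO and 22.9% for GPR43 KO. The log2 fold change was -1.40 ± 0.19 (adjusted p = 0.00443) in GPR41 KO and -1.10 ± 0.19 (adjusted p = 0.0177) in GPR43 KO, or 0.363 and 0.453 times the WT mean. The GPR41 KO call passed whichever array was left out (adjusted p of at most 0.0443). The GPR43 KO call was lost without WT replicate 2 (adjusted p = 0.0924), with the library labelled GPR43 KO replicate 1 left out (-1.07, adjusted p = 0.0845) and without GPR43 KO replicate 2 (-1.12, adjusted p = 0.103).

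Abca1 had 2 further probe sets. The first had signals of 172 and 197 in WT, 126 and 85.3 in GPR41 KO, and 62.0 and 97.6 in GPR43 KO, lower in every KO array than in WT, with log2 differences of -0.73 and -1.07. The second was weak, at 1.73 to 42.4. Taking the mean over the 3 probe sets, Abca1 had log2 fold changes of -0.90 (adjusted p = 0.145) and -0.67 (adjusted p = 0.286) and did not pass. Abcg5 and Abcg8, the paired transporters that return sterols to the gut lumen, were weak. Abcg5 had signals of 217 and 113 in WT, 225 and 234 in GPR41 KO, and 188 and 135 in GPR43 KO, and Abcg8 had 159 and 135, 140 and 167, and 76.8 and 205. Neither passed, with adjusted p of 0.46 and 0.963 in GPR41 KO and 0.985 and 0.854 in GPR43 KO, and their intervals were wide: that of Abcg8 in GPR41 KO ran from -0.86 to 0.97.

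The KO groups were also compared with each other. No gene of the set and no gene in all (0 of 10916, 0%) passed between GPR43 KO and GPR41 KO in limma, while 596 genes (5.46%) had an unadjusted p under 0.05. Among the 36 genes, Scd1, Me1 and Fasn had an unadjusted p under 0.05 and did not pass after adjustment (adjusted p = 0.87 for each in limma). Their log2 differences, GPR43 KO minus GPR41 KO, were -0.49 (interval -0.81 to -0.17), -0.62 (-1.11 to -0.13) and -0.33 (-0.61 to -0.05). The median difference was -0.09, with 11 of 36 genes higher and 25 lower in GPR43 KO, while 56.3% of all genes were higher there. Both GPR43 KO arrays were above both GPR41 KO arrays in 4 of the 36 (23.1% of all genes) and below them in 8 (14.8% of all genes). Without the library labelled GPR43 KO replicate 1 the median was 0.04, and without GPR43 KO replicate 2 it was -0.20. For 33 of the 36 genes the 95% interval of the difference lay within 1 of 0, and over all 36 the bounds ran from -1.23 to 0.75. Of the 19 genes called in GPR41 KO, 11 were also called in GPR43 KO, 8 were called in GPR41 KO only, and none in GPR43 KO only, and for none of the 8 did the difference between the KO groups pass.

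Arrays of one group also differed from each other in these genes. In WT, replicate 1 was above replicate 2 in 13 of 17 sterol enzymes, with a median log2 difference of 0.49, against 44.6% of all genes. In GPR41 KO replicate 1 was the higher in 14 of 17 (median 0.17, against 48.1% of all genes), and in GPR43 KO in 5 of 17 (median -0.21, against 53.2%). Most sterol enzymes thus lay on the same side within each genotype, and their median difference was largest in WT.

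Leaving out single arrays changed many calls. Without WT replicate 1 the calls among the 36 were 25 in GPR41 KO and 20 in GPR43 KO, and without WT replicate 2 they were 10 and 5. Without GPR41 KO replicate 1 there were 7 calls in GPR41 KO, and without GPR41 KO replicate 2 there were 10. Of the 19 GPR41 KO calls, 7 passed whichever array was left out: Hmgcs1, Fdps, Tm7sf2, Fasn, Scd1, Scd2 and Abca1. Of the 11 GPR43 KO calls, Fdps and Scd1 did. The other 12 GPR41 KO calls were each lost without at least 1 array.

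Without GPR41 KO replicate 1 the adjusted p in limma rose to 0.114 for Cyp51, 0.142 for Me1, 0.15 for Sqle, 0.165 for Acly, 0.178 for Nsdhl, 0.205 for Idi1, 0.239 for Msmo1 and 0.259 for Elovl6. For Dhcr7, Fads1 and Fads2 it was 0.0759, 0.138 and 0.0804. Srebf2 had 0.129, and 0.0531 without WT replicate 2. All 12 calls were thus lost without GPR41 KO replicate 1, although the log2 fold change was larger without it for Dhcr7 (0.97), Fads1 (0.92) and Fads2 (1.14). Without GPR41 KO replicate 2 it was 0.0508 for Cyp51, 0.0567 for Elovl6, 0.0626 for Me1, 0.0933 for Nsdhl, 0.0965 for Acly, 0.112 for Idi1, 0.118 for Dhcr7, 0.17 for Fads2 and 0.241 for Fads1. Without WT replicate 2 it was 0.0748 for Dhcr7, 0.088 for Sqle, 0.0912 for Fads2, 0.0967 for Acly, 0.121 for Fads1, 0.124 for Nsdhl, 0.131 for Idi1, 0.15 for Msmo1 and 0.155 for Elovl6. Fads1 also lost its call without WT replicate 1 (0.0813), and Elovl6 without either GPR43 KO array (0.0647 and 0.0644), where only the shared spread changed.

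In GPR43 KO, the library labelled GPR43 KO replicate 1 was needed for the calls of Cyp51 (adjusted p = 0.0586 without it), Fads2 (0.101) and Nsdhl (0.11), beside Fasn and Abca1 above. Without GPR43 KO replicate 2, Cyp51, Dhcr7, Nsdhl and Fads2 also lost their calls, with adjusted p of 0.16, 0.164, 0.214 and 0.223. Every GPR43 KO call other than Fdps and Scd1 was thus lost without GPR43 KO replicate 2. WT replicate 2 ended the calls of Cyp51 (0.0516), Dhcr7 (0.0875), Fasn (0.0992), Fads2 (0.12) and Nsdhl (0.138) when left out. Without GPR41 KO replicate 1, which entered only through the shared spread, the adjusted p was 0.0505 for Fasn, 0.0606 for Fads2 and 0.0631 for Nsdhl. Without GPR41 KO replicate 2 it was 0.0598 for Fads2 and 0.0618 for Nsdhl. The direction of all these calls stayed as reported.

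Most genes had further probe sets, which give a second reading from the same RNA. The 36 genes had 82 probe sets, and of the 46 not chosen, 30 (of 21 genes) had a mean signal of at least 100. Their fold change had the sign of the chosen probe set in 30 of 30 in GPR41 KO and 29 of 30 in GPR43 KO, the exception being Insig2. The 3 probe sets of Scd2 had log2 differences of 1.83, 1.84 and 2.16 in GPR41 KO. For Hmgcs1 the 3 further probe sets at or above that signal had 1.23, 1.23 and 1.24. Sizes differed for other genes. The further probe set of Scd1 was weak, at 72.9 and 105 in WT, 167 and 159.8 in GPR41 KO, and 124 and 190.2 in GPR43 KO. All its KO arrays were above WT, but its log2 differences were 0.78 and 0.70, against 1.73 and 1.25 for the chosen one. In GPR41 KO a further probe set was also lower for Srebf2 (0.48 in place of 0.90), Fads2 (0.54 in place of 0.99), Fads1 (0.25 in place of 0.81), Acss2 (0.12 in place of 0.75), Cyp51 (0.92 in place of 1.30) and Lss (0.28 in place of 0.74). It was higher for Mvd (1.18 in place of 0.77), Mvk (0.78 in place of 0.33) and Idi1 (1.17 in place of 0.86), and another probe set of Fads2 had 1.27. The chosen probe sets of Mvd, Lss and Hsd17b7 are of types that can read transcripts of other genes as well, so their values are less certain.

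Other genes of the pathways were taken from 4 lists. Of 5 tested genes in further sterol and isoprenoid metabolism, none rose and 1 fell in each KO group, with medians of -0.14 and -0.18. These were Cyp27a1, which oxidises the sterol side chain, in GPR41 KO (-0.87, adjusted p = 0.0372) and Ggps1, which makes geranylgeranyl diphosphate, in GPR43 KO (-0.82, adjusted p = 0.0425). Cyp27a1 had signals of 731 and 1033 in WT and 440.4 and 498 in GPR41 KO, and Ggps1 had 577 and 604 in WT and 322 and 331 in GPR43 KO. Aacs, which activates acetoacetate for sterol synthesis, had the highest value of this list, 0.98 in GPR41 KO and 0.73 in GPR43 KO (adjusted p = 0.059 and 0.146). The probe set of Ggps1 is of a type that can read other transcripts as well. Both calls were lost without several arrays. For Cyp27a1 the adjusted p was 0.203 and 0.112 without GPR41 KO replicates 1 and 2, 0.177 without WT replicate 2, and 0.0594 and 0.06 without either GPR43 KO array. For Ggps1 it was 0.0624 and 0.145 without WT replicates 1 and 2, 0.0603 and 0.0622 without either GPR41 KO array, 0.155 with the library labelled GPR43 KO replicate 1 left out, and 0.177 with GPR43 KO replicate 2 left out. None of 9 tested genes of sterol uptake and storage passed in either KO group in limma, with medians of 0.04 and -0.02.

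The list of LXR target and efflux genes also held Nr1h3, which encodes an LXR receptor, and Ch25h. None of its 7 tested genes passed in either group, with medians of -0.44 and -0.02. The 7 did not share a direction. Of the 9 with a probe set, Cyp7b1 and Apoa1 were too weak to be tested. Cyp7b1 had signals of 172 and 301 in WT and 44.1 to 97.4 in the KO arrays. Lpcat3, which remodels phospholipids, had the smallest p of the list in GPR41 KO and was the higher, at 0.50 (adjusted p = 0.05, not past the threshold) and 0.45 in GPR43 KO (adjusted p = 0.0755). Lower values in GPR41 KO were those of Apoe, an apolipoprotein (-0.82, adjusted p = 0.0921), Ch25h, which makes 25-hydroxycholesterol (-1.20, adjusted p = 0.104), Pltp, which transfers phospholipid (-0.44, adjusted p = 0.183), and the cholesterol exporter Abcg1 (-0.60, adjusted p = 0.269). In GPR43 KO these 4 had -0.33, -0.98, 0.11 and -0.02. Of 18 further genes of fatty acid and triglyceride metabolism, 2 rose in GPR41 KO and none in GPR43 KO, with medians of 0.12 and 0.07. Thrsp, a lipogenic nuclear protein, had signals of 155 and 142 in WT, 519 and 396 in GPR41 KO, and 220.3 and 218 in GPR43 KO. It rose in GPR41 KO by 1.504 ± 0.23 (adjusted p = 0.00709) and lost the call without GPR41 KO replicate 1 (1.32, adjusted p = 0.0834). Its partner Mid1ip1, which activates acetyl-CoA carboxylase, rose by 0.67 ± 0.15 (adjusted p = 0.0369) and had 0.50 (adjusted p = 0.233) without GPR41 KO replicate 1, 0.0747 as adjusted p without WT replicate 1, and 0.057 and 0.0572 without either GPR43 KO array. The 4 lists held 5, 9, 7 and 18 tested genes, and none had more than 2 past the test in either KO group. Of all genes tested, 4.96% passed in GPR41 KO and 3.96% in GPR43 KO. With so few genes, the share of a list cannot be set closely against these.

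Colon is a mixture of cells, and in such samples more cells of a type cannot be told apart from more RNA per cell. All 9 tested neutrophil markers fell in both KO groups, with median log2 fold changes of -5.58 and -5.30. The filter took the mean over all 6 arrays, so markers weak in KO could pass it through WT signal alone. The count of 9 and the medians thus depend on the filter. For all 12 listed markers, tested or not, both arrays of each KO group were below both WT arrays (25.3% and 22.9% of all genes tested). The summed signal of the 12 listed markers was 92375 and 174298 in WT, 1331 and 1091 in GPR41 KO, and 3484 and 1414 in GPR43 KO. Within WT, all 12 neutrophil markers were lower in replicate 1, the array with the higher sterol enzyme signals. In GPR41 KO, 7 of the 12 were higher in replicate 1, where most sterol enzymes were also higher. In GPR43 KO, 9 of the 12 were higher in replicate 1, where most sterol enzymes were lower. Of 12 macrophage and monocyte markers 6 fell in each KO group (medians -1.06 and -0.66), and their summed signal was 42946 and 61377 in WT and 21900.1 to 28595 in the KO arrays. Abca1 fell beside these markers. The part of either cell type in the differences of the lipid genes was not tested.

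Absorptive colonocyte markers were higher in the KO groups, with 3 of 11 past the test in GPR41 KO (Aqp8, Fabp2 and Vil1) and 2 of 11 in GPR43 KO (Aqp8 and Fabp2). Averaged on the log2 scale and set to 0 at the WT mean, they were at 0.20 and -0.20 in the WT arrays, 0.71 and 0.75 in GPR41 KO, and 0.71 and 0.65 in GPR43 KO. On the same scale the sterol enzymes were at 0.14 and -0.14 in WT, 0.95 and 0.73 in GPR41 KO, and 0.63 and 0.81 in GPR43 KO. The fatty acid enzymes were at 0.08 and -0.08, 1.05 and 0.99, and 0.78 and 0.86. All 3 lists were above both WT arrays in every KO array, and in WT all 3 were higher in replicate 1. Within the KO groups the order differed. In GPR41 KO both enzyme lists were higher in replicate 1 and the colonocyte markers in replicate 2. In GPR43 KO both enzyme lists were higher in replicate 2 and the colonocyte markers in replicate 1. Replicate 1 was the higher in 4 of 11 colonocyte markers in GPR41 KO (48.1% of all genes). In GPR43 KO it was the higher in 6 of 11 (53.2% of all genes). The order of 2 arrays is a description only. General epithelial markers had 0 of 8 past the test in both KO groups in limma, and lay 0.17 to 0.29 above WT. Goblet cell markers had 1 of 8 and 2 of 8 past the test, all higher, with medians of 0.61 and 0.63. The part of epithelial content in the lipid gene differences was not tested.

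**Figure D4:**
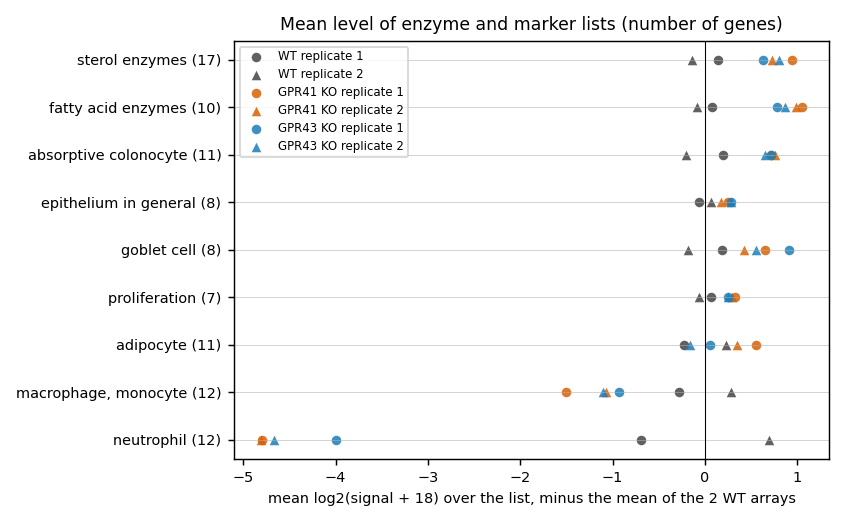
Mean log2(signal + 18) of gene lists per array, set to 0 at the WT mean, with 1 point per array and the number of genes of each list in brackets. Sterol and fatty acid enzymes and absorptive colonocyte markers lie above 0 in all 4 KO arrays, while neutrophil and macrophage markers lie below 0.

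Fat tissue also makes fatty acids, and its markers moved in both directions. Of 10 tested adipocyte markers, 3 rose (Car3, Lpl and Thrsp) and 2 fell (Fabp4 and Plin4) in GPR41 KO, and Car3 rose and Fabp4 fell in GPR43 KO, with medians of 0.20 and -0.32. Car3, a carbonic anhydrase abundant in fat and muscle, had signals of 136 and 240.02 in WT, 1433 and 1375 in GPR41 KO, and 1213 and 572 in GPR43 KO. Its log2 fold change was 2.83 (adjusted p = 0.00279) in GPR41 KO, the largest rise of all 10916 genes tested, and 2.09 (adjusted p = 0.0133) in GPR43 KO, the 7th largest. Lpl, lipoprotein lipase, rose by 0.92 (adjusted p = 0.0136) in GPR41 KO. Fabp4, a fatty acid carrier of fat cells and macrophages, fell, with log2 fold changes of -0.89 and -1.05 (adjusted p = 0.0129 and 0.00813). Car3 passed in both groups whichever array was left out (adjusted p of at most 0.0257 and 0.0485), with 1.56 in GPR43 KO when the library labelled GPR43 KO replicate 1 was dropped. Leaving out GPR41 KO replicate 1 or 2 ended the GPR41 KO calls of Lpl (adjusted p = 0.082 and 0.0933), Fabp4 (0.104 and 0.0527) and Plin4 (0.248 and 0.117). Leaving out WT replicate 2 ended those of Fabp4 (0.0611) and Plin4 (0.219), and in GPR43 KO that of Fabp4 was lost without GPR43 KO replicate 2 (0.0632).

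The summed signal of the 11 adipocyte markers with a probe set was 5139 and 6451 in WT, 6955 and 6659.9 in GPR41 KO, and 5616 and 4387 in GPR43 KO. The sums of the GPR41 KO arrays were above both WT sums, and those of GPR43 KO overlapped with WT. The sums include Car3, at 136 and 240 in WT and 1433 and 1375 in GPR41 KO, and were not made without it. Of the 10 tested markers, 6 had a log2 fold change above 0 in GPR41 KO, so the sums do not show a rise of the list as a whole. Averaged on the log2 scale, the list was at -0.23 and 0.23 in WT, 0.55 and 0.35 in GPR41 KO, and 0.05 and -0.16 in GPR43 KO. Adipoq, the fat cell hormone adiponectin, had 40.7 and 174 in WT, 368 and 311 in GPR41 KO, and 267 and 109 in GPR43 KO. Leptin (Lep) was near background in every array, at 1.81 to 21.4. Proliferation markers had 0 of 7 past the test in either KO group in limma, with medians of 0.27 and 0.26. Of 5 plasma cell markers Jchain rose in GPR41 KO and none passed in GPR43 KO in limma, and the mean log2 level of the list was 0.55 to 0.64 above WT in the KO arrays, with WT arrays at 0.13 and -0.13. Of 8 smooth muscle markers Actg2 rose in both KO groups and Smtn in GPR43 KO, and the list lay 0.13 to 0.65 above the WT mean. Of 3 tested sebaceous and squamous markers Sbsn and Dmkn fell in GPR41 KO and Dmkn in GPR43 KO. These marker genes were picked for naming with their values already seen. The part of fat tissue, dividing cells, plasma cells, muscle and squamous epithelium in the lipid gene differences was not tested.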

How the data were processed

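Each of 6 RNA samples was read on 1 Affymetrix mouse array from 2 µg of total RNA, per the labels. For each probe set the authors deposited an intensity made with MAS5, per the submitters' processing notes, which subtracts background and scales arrays: the mean signal without the outer 2% was 500 in every array. Of 45101 probe sets, 34958 carried 1 gene symbol, 932 several and 9211 none in the platform annotation. The probe set with the highest mean was kept per gene, and genes above the 40th percentile of mean log2 signal were tested. A pseudocount of 18 was added before log2, which draws weak signals together and understates their changes. In R 4.3.3, limma 3.58.1 (lmFit, eBayes with trend) fitted 1 mean for each genotype over the 6 arrays together, with 3 residual degrees of freedom, raised to 8.71. Tests were two-sided and adjusted with Benjamini-Hochberg over all genes tested, in 3 comparisons. With 2 arrays against 2, an exact permutation test of a single gene cannot go below p = 0.333. The procedure was tested on simulated data. The members and lists were chosen with earlier results of these data known. All members could be named, with full values for those whose call held with any single array left out and for those that differ in direction within a role; other pathway genes were named where past the threshold or among the smallest p of their list. Alternatives covered the pseudocount, a floor, quantile normalization, median centring, the filter, the mean over probe sets, no intensity trend, the replicate block, only the arrays compared, and each array left out. The number of arrays limits the precision.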

Additional observations from a re-analysis of the deposited data

How the results depend on the processing

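Genes past the threshold over all tested numbered 541 in GPR41 KO and 432 in GPR43 KO. They were 335 (165 higher, 170 lower) and 280 (140 higher, 140 lower) with the filter at the 60th percentile, and 360 and 217 without the intensity trend. With each array left out they ranged from 195 to 892 and from 129 to 761. Between the KO groups, 1 gene passed when only those 4 arrays were fitted, and 0 to 3 with each array left out. Calls among the 36 lipid genes, 19 and 11, were 10 and 6 with the mean over probe sets, 8 and 5 without the trend, and 7 to 25 and 2 to 20 with each array left out. They kept to within 1.5 times under the other alternatives, save for the replicate block. With the replicate number as a block the lipid gene calls were 12 and 7. The labels do not say whether the numbers pair arrays across genotypes. Deviations of same-numbered arrays correlated at 0.107 (WT with GPR41 KO), -0.271 (WT with GPR43 KO) and -0.0537 (GPR41 KO with GPR43 KO). With 2 arrays per group these values cannot settle whether arrays were paired.

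No lipid gene past the threshold changed sign under any alternative run. Among genes that did not pass, Scap turned to -0.40 and -0.10 with the mean over probe sets (GPR41 KO and GPR43 KO). With each array left out Scap ranged from -0.12 to 0.15 in GPR41 KO and from -0.036 to 0.23 in GPR43 KO, below 0 without WT replicate 1. In GPR41 KO, Insig2 ranged from -0.50 to 0.018, above 0 without GPR41 KO replicate 1. Abcg8 there ranged from -0.060 to 0.17, and was below 0 without WT replicate 2 (-0.052) or GPR41 KO replicate 2. In GPR43 KO, Abcg5 ranged from -0.40 to 0.44, below 0 without WT replicate 2 or GPR43 KO replicate 1 (-0.20). Abcg8 ranged from -0.79 to 0.44, above 0 without GPR43 KO replicate 1. The cause was not tested. Signal over background limits Abcg5, Abcg8 and the further Abca1 probe sets.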
